A study of Homo sapiens with 24 samples.

Results

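Fatty acid metabolism was examined through 10 enzyme genes, which were selected by symbol out of the 23106 gene symbols counted in each library. The synthesis arm comprised 6 genes (ACLY, ACSS2, ACACA, FASN, ELOVL6 and SCD) and the oxidation arm comprised 4 (CPT1A, ACADVL, ACADM and HADHA), and all 10 were present in the counts. They were measured by RNA-seq of polyadenylated RNA in 4 established cancer cell lines, A549 (lung), HCT-116 (colorectal), PC3 (prostate) and T47D (breast), for which the labels give no genetic change and no other treatment. Each line was cultured in 21% O2 (normoxia) or in 0.5% O2 for 16 h in a hypoxia chamber (hypoxia), with 3 libraries in each of the 8 groups and 24 libraries in all. A549 and PC3 were grown in F12K, HCT-116 in McCoy's 5a and T47D in DMEM, each with fetal bovine serum, so differences between lines cannot be told apart from differences between media, except between A549 and PC3. The labels do not say whether the 3 libraries of a group came from separate cultures, so p-values measure the spread between these libraries, which may be technical.

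New fatty acids are built in the cytosol from acetyl-CoA. ACLY releases acetyl-CoA from citrate and ACSS2 makes it from acetate, ACACA carboxylates it to malonyl-CoA, FASN joins these units into palmitate, ELOVL6 lengthens palmitate to stearate and SCD introduces a double bond in a reaction that consumes O2. In the opposite direction, CPT1A commits long-chain acyl groups to the mitochondrion, where ACADVL and ACADM perform the opening dehydrogenation of very long- and medium-chain acyl-CoA and HADHA, the alpha subunit of the trifunctional protein, carries out later steps of each cycle. Synthesis genes are known targets of the SREBP transcription factors, and lipid handling is known to change when O2 becomes limiting.

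In these data SCD, FASN and ACSS2 were upregulated by hypoxia in all 4 lines, whereas ELOVL6, which acts between FASN and SCD, was downregulated in 3 of them. After correction for GC content and transcript length SCD was still called in all 4 lines, but FASN was not called in T47D nor ACSS2 in PC3. Some fits without 1 library lost the T47D calls of FASN and SCD and the A549 and PC3 calls of ACSS2. Among the oxidation genes, ACADM was downregulated in 3 lines, a decrease that disappeared or turned after correction for GC content, and HADHA was upregulated in 2. As SCD and ACSS2 rose in each line and ELOVL6 and ACADM fell, the start site sequences of these 4 genes are shown for comparison. Each runs from 250 bases before to 50 bases after a RefSeq start site (GRCh38.p14), and capitals mark every ACGTG or GCGTG on either strand, the core letters of the hypoxia response element bound by HIF. SCD lies at chr10:100346983-100347282 on the plus strand, ACSS2 (the second of its 2 listed start sites) at chr20:34876362-34876661 on the plus strand, ELOVL6 at chr4:110198566-110198865 on the minus strand and ACADM at chr1:75724459-75724758 on the plus strand.
SCD: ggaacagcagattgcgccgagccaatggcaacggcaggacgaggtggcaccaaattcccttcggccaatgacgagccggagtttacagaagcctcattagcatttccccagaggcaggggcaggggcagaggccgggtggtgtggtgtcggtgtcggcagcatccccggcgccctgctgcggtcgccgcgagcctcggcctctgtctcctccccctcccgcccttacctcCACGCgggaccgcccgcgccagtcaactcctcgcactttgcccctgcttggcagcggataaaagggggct
ACSS2: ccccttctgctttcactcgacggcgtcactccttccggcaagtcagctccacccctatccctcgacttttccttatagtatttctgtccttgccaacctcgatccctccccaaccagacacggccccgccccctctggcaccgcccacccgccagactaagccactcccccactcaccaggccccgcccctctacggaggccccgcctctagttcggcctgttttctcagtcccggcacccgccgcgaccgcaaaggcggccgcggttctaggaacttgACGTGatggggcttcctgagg
ELOVL6: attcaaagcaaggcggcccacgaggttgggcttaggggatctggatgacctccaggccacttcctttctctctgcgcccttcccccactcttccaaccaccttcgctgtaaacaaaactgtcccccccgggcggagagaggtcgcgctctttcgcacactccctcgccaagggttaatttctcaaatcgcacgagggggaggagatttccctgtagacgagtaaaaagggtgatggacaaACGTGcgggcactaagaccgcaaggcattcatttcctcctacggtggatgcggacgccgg
ACADM: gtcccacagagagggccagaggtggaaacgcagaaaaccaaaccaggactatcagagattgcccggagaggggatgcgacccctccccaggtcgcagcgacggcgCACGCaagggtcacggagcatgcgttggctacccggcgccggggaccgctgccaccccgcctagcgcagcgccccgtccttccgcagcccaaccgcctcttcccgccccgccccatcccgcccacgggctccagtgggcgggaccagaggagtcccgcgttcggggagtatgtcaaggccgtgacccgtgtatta

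Counted from the start site, the core letters began at position -20 in SCD, 30 in ACSS2, -10 in ELOVL6 and -145 in ACADM. A match was therefore found in genes that rose and in genes that fell. Of 35116 listed promoters of this length, 48.4% contained at least 1 ACGTG or GCGTG, 21.4% contained ACGTG and 36.5% contained GCGTG. HADHA, which rose in A549 and HCT-116, had neither within its 300 bases, and neither had start site 1 of ACSS2 or start site 1 of ACADVL. All listed start sites of ACLY, ACACA and CPT1A and start site 2 of ACADVL held at least 1. CCAAT, the letters recognized by NF-Y, occurred 2 times in SCD, in each start site of ACLY and in start site 3 of ACACA, 1 time in start site 2 of ACACA and in start site 1 of ACSS2, and in none of the listed windows of ELOVL6 and the oxidation members. It was found in 34.6% of all listed promoters. TCACNCCAC, a form of the sterol regulatory element, was found in 1.1% of listed promoters and in none of the members. The table listed 9 of the 10 members, without FASN. These are matches of letters and were not tested for binding.

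Library totals ranged from 22698584 to 62850747 counts with a median of 56109796, and log2 levels of replicates correlated across genes with Pearson's r from 0.9815 to 0.9937. No library pair was identical. All 6 hypoxia markers examined (CA9, NDRG1, EGLN3, ANKRD37, VEGFA and ADM) rose in all 4 lines, NDRG1 with log2 fold changes from 2.43 in PC3 to 6.61 in T47D. T47D libraries contained ESR1 (166 CPM in normoxia) and GATA3 (708 CPM), PC3 libraries contained HOXB13 (75.1 CPM) but had KLK3 at 0 in normoxia and hypoxia, and HCT-116 libraries contained CDX2 (11.8 CPM) but almost no VIL1, LGALS4 or CDH17 (0.0560 CPM). In A549 the alveolar markers SFTPB and SFTPC were at 0.0241 and 0.0424 CPM in normoxia, and NKX2-1 was at 0, so the lung origin of this line could not be checked with them. Some markers ran against the labels, with the intestinal CDH17 at 14.6 CPM in normoxic A549 and the lung markers NKX2-1 and NAPSA at 0.936 and 1.04 CPM in normoxic HCT-116, against 0 and 0.438 CPM in normoxic A549.

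Levels are given as CPM, a count as a share of its library total after scaling of all 24 libraries by the TMM method, and in the order of replicates 1 to 3. CPM expresses a gene as a share of the RNA in a library, so fewer expressing cells and less RNA per cell cannot be told apart. Fold changes and their standard errors (SE) come from edgeR, fitted to the 6 libraries of a line with scaling within that line, and can therefore depart slightly from the ratio of mean CPM. A gene was called changed at an adjusted p under 0.05 with a fold change over 1.2. All 10 members passed the filter on low counts in every line, with no member dropped.

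In A549, 5 members were upregulated and 2 were downregulated, against 17.6% of all tested genes called higher and 17.8% called lower. HCT-116 had 6 upregulated and 2 downregulated members (23.3% of all tested genes higher and 27.0% lower), and PC3 had 4 and 2 (16.6% higher and 15.7% lower). In T47D 4 members were upregulated and 0 were downregulated (6.55% higher and 6.69% lower). The median log2 fold change of the 6 synthesis members was 0.47 in A549, 1.38 in HCT-116, 0.35 in PC3 and 1.03 in T47D, whereas the 4 oxidation members had medians of -0.15, 0.50, 0.05 and 0.15 in the same order. Over all tested genes the median was between -0.03 and -0.01. SCD, FASN and ACSS2 were higher in all 4 lines, as were 303 of the 11734 genes tested in every line (2.58%). ELOVL6 and ACADM were lower in 3 lines, as 1242 genes were in at least 3. That count includes genes tested in only 3 lines, so the share of the 11734 was at most 10.6%.

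**Figure D1:**
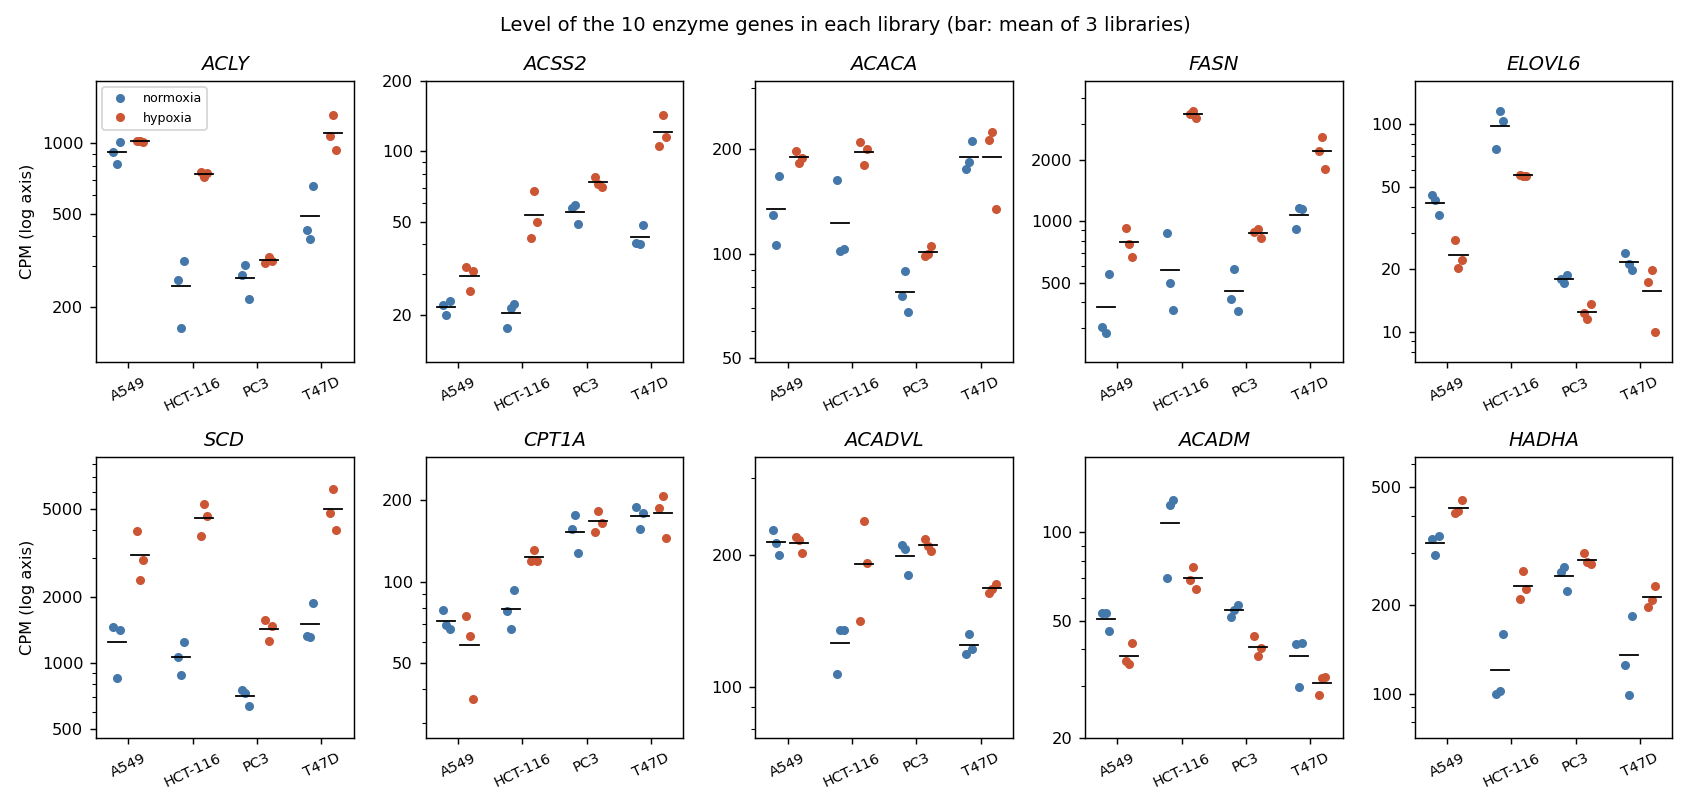
Level of each of the 10 enzyme genes in the 24 libraries, as CPM on a log axis that differs between panels, by cell line and O2 state (blue, normoxia; orange, hypoxia). Points are libraries and bars are means of 3; the hypoxic SCD, FASN and ACSS2 points lie above the normoxic points of the same line in every line, and the ELOVL6 points lie below them in A549, HCT-116 and PC3.

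Among the enzymes that supply acetyl-CoA, ACLY (chr17:40023170-40086795, minus strand, GRCh37, 29 exons) responded in some lines and not in others. In HCT-116 it was at 260, 162 and 315 CPM in normoxia and at 756, 717 and 743 CPM in hypoxia, a log2 fold change of 1.48 ± 0.24 (SE, adjusted p = 0.000377). T47D libraries held 426, 390 and 656 CPM in normoxia and 1079, 1319 and 938 CPM in hypoxia (log2 fold change 1.11 ± 0.26, adjusted p = 0.0181). In both lines every hypoxic library exceeded every normoxic one. A549 began at a higher level, with 918, 813 and 1010 CPM in normoxia and 1021, 1023 and 1017 CPM in hypoxia, and its log2 fold change of 0.15 ± 0.11 did not pass the test (adjusted p = 0.301). PC3 had 273, 303 and 217 CPM in normoxia and 309, 328 and 315 CPM in hypoxia (log2 fold change 0.21 ± 0.11, adjusted p = 0.164). The groups did not overlap in A549 or PC3 either, although the shifts were small. The call in T47D was lost in 3 of the 6 fits that left out 1 library (without hypoxia replicate 2, normoxia replicate 1 or normoxia replicate 2), with log2 fold changes between 0.98 and 1.34.

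ACSS2 (chr20:33459949-33515765, plus strand), the acetate-using enzyme whose start site was shown above, was less abundant and rose in each line. In T47D it went from 40.5, 40.0 and 48.3 CPM to 106, 143 and 115 CPM, a 2.67-fold increase (log2 fold change 1.41 ± 0.20, adjusted p = 0.000975). In HCT-116 it went from 17.5, 21.3 and 22.2 CPM to 42.7, 67.8 and 49.8 CPM, a 2.42-fold increase (log2 fold change 1.27 ± 0.21, adjusted p = 0.000346). Smaller increases were measured in the remaining lines. A549 libraries moved from 22.0, 20.0 and 22.8 CPM to 32.1, 25.2 and 30.8 CPM (log2 fold change 0.44 ± 0.12, adjusted p = 0.0165) and PC3 libraries from 57.5, 59.2 and 48.7 CPM to 78, 72.6 and 70.4 CPM (log2 fold change 0.37 ± 0.10, adjusted p = 0.0175). The O2 states did not overlap in any line. In A549 the call was lost without hypoxia replicate 1 (adjusted p = 0.0537) or normoxia replicate 2 (0.0749), and in PC3 without hypoxia replicate 1 (0.0696) or hypoxia replicate 2 (0.0593). ACSS1 and ACSS3 are mitochondrial enzymes of the same family. The ACSS2 share of the per-kb level of the 3 genes together rose from 58.2% ± 5.59 to 82.0% ± 5.14 in T47D (SD, n = 3), with no overlap between the states. It was 50.3% ± 2.57 in normoxia and 57.3% ± 6.10 in hypoxia in A549, where the states overlapped.

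ACACA (chr17:35441927-35766927, minus strand, 56 exons), which makes malonyl-CoA and controls entry into synthesis, passed the test in 2 lines. A549 libraries contained 129, 106 and 167 CPM in normoxia and 198, 182 and 189 CPM in hypoxia (log2 fold change 0.50 ± 0.15, adjusted p = 0.0213). PC3 libraries contained 75.8, 89.3 and 68.2 CPM and then 98.8, 100 and 105 CPM (log2 fold change 0.33 ± 0.10, adjusted p = 0.0291). Both increases were separated from normoxia, but each call was fragile, being lost in 3 of 6 fits without 1 library in A549 and in 4 of 6 in PC3. In A549 these were the fits without hypoxia replicate 1 (adjusted p = 0.0501), normoxia replicate 1 (0.0681) and normoxia replicate 2 (0.0949), and in PC3 those without any 1 of the hypoxic libraries (0.0701, 0.0857 and 0.0981) or normoxia replicate 1 (0.102). HCT-116 had 163, 102 and 103 CPM in normoxia and 210, 180 and 200 CPM in hypoxia, and the log2 fold change of 0.56 ± 0.23 missed the threshold (adjusted p = 0.0588). It passed with the replicate number as a block (0.59, adjusted p = 0.0173), with DESeq2 (0.60, adjusted p = 0.0284) and without normoxia replicate 1 (0.90, adjusted p = 0.00403), but went to -0.05 (adjusted p = 0.831) after correction for GC content and length. In T47D the states overlapped, with 175, 183 and 211 CPM in normoxia and 212, 224 and 134 CPM in hypoxia (log2 fold change -0.08 ± 0.23, adjusted p = 0.836). ACACA provided most of the per-kb level of the ACACA and ACACB pair in each group, from 80.8% ± 0.430 in normoxic PC3 to 97.3% ± 1.11 in normoxic T47D (SD, n = 3). The gene overlaps C17orf78 on the opposite strand, which was near 0 in all lines.

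FASN (chr17:80036214-80056170, minus strand, 43 exons), the fatty acid synthase, showed the largest fold change of any member, in HCT-116. Its level there was 872, 496 and 367 CPM in normoxia and 3343, 3460 and 3207 CPM in hypoxia, a 5.25-fold increase (log2 fold change 2.39 ± 0.32, adjusted p = 0.000149). The hypoxic libraries were tightly grouped while the normoxic ones spread widely. A549 libraries contained 303 and 285 CPM in normoxia replicates 1 and 2, with a mean of 379 ± 147 CPM over the 3 (SD), and 930, 769 and 667 CPM in hypoxia, a 2.07-fold increase (log2 fold change 1.05 ± 0.22, adjusted p = 0.00374). PC3 libraries contained 417, 581 and 364 CPM and then 880, 914 and 822 CPM, a 1.86-fold increase (log2 fold change 0.90 ± 0.14, adjusted p = 0.00323). The O2 states did not overlap in these lines or in T47D, where FASN went from 918, 1156 and 1142 CPM to 2212, 2593 and 1802 CPM (log2 fold change 0.96 ± 0.25, adjusted p = 0.0268). The T47D call was lost in 4 of 6 fits without 1 library, with adjusted p of 0.0929 without hypoxia replicate 1, 0.114 without hypoxia replicate 2, 0.177 without normoxia replicate 1 and 0.0740 without normoxia replicate 2.

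ELOVL6 (chr4:110967002-111120355, minus strand, 4 exons), the elongase that extends palmitate, moved opposite to its neighbours in the pathway. A549 libraries fell from 45.4, 43.0 and 36.6 CPM to 27.6, 20.4 and 22.2 CPM, 1.78-fold lower (log2 fold change -0.83 ± 0.14, adjusted p = 0.000945). HCT-116, the line with the highest level, fell from 75.6, 115 and 103 CPM to 57.1, 56.5 and 56.1 CPM, 1.88-fold lower (log2 fold change -0.91 ± 0.20, adjusted p = 0.00219). PC3 libraries fell from 18, 17.1 and 18.7 CPM to 12.3, 11.6 and 13.6 CPM, 1.48-fold lower (log2 fold change -0.57 ± 0.12, adjusted p = 0.00764). In each of these 3 lines all hypoxic libraries lay below all normoxic ones, and the calls were kept in all 6 fits without 1 library. T47D had 24, 21.1 and 19.9 CPM in normoxia and 17.3, 19.9 and 9.99 CPM in hypoxia, and the log2 fold change of -0.55 ± 0.25 did not pass the test (adjusted p = 0.150). Of the summed per-kb level of the 7 ELOVL genes, ELOVL6 took 13.2% ± 1.92 in normoxic and 7.62% ± 0.673 in hypoxic HCT-116, and 4.37% ± 0.618 and 2.04% ± 0.476 in A549 (SD, n = 3), without overlap.

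SCD (chr10:102106990-102124583, plus strand, 6 exons), the desaturase that converts stearate to oleate, was the most abundant member per kilobase of transcript in every group and rose in each line. SCD also belongs to the core list of HIF-bound, hypoxia-upregulated genes of the study, which was drawn in part from these libraries, so its increase here is not independent evidence of that direction. HCT-116 libraries rose from 1065, 885 and 1249 CPM to 3775, 5285 and 4666 CPM, a 3.96-fold increase (log2 fold change 1.98 ± 0.24, adjusted p = 0.000105). T47D libraries rose from 1332, 1316 and 1868 CPM to 4820, 6176 and 4009 CPM, a 3.15-fold increase (log2 fold change 1.65 ± 0.28, adjusted p = 0.00339). The highest levels of all members were thus reached in hypoxic T47D and HCT-116. A549 libraries rose from 1455, 853 and 1414 CPM to 3957, 2380 and 2944 CPM (log2 fold change 1.31 ± 0.21, adjusted p = 0.000904), and PC3 libraries from 756, 728 and 639 CPM to 1568, 1254 and 1466 CPM (log2 fold change 0.96 ± 0.11, adjusted p = 0.000944). No overlap between the states occurred in any line. Of the fits without 1 library, only the fit without T47D normoxia replicate 1 lost a call (log2 fold change 1.59, adjusted p = 0.0677). SCD5, the other human stearoyl-CoA desaturase, provided little of the summed per-kb level of the pair, in which SCD held between 94.7% ± 0.804 (normoxic HCT-116) and 98.7% ± 0.219 (hypoxic A549; SD, n = 3) outside T47D, where SCD5 was close to 0.

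As SCD rose while ELOVL6 fell, the ratio of their per-kb levels increased in each line. In HCT-116 it was 17.6, 9.63 and 15.2 in normoxia and 82.8, 117 and 104 in hypoxia. In A549 it was 40.1, 24.9 and 48.4 in normoxia and 179, 146 and 166 in hypoxia. The ratio also separated the states in PC3, with means of 49.6 ± 5.81 and 143 ± 14, and in T47D, with means of 88.5 ± 25.7 and 414 ± 79.8 (SD, n = 3). ELOVL6 was itself not called in T47D, and the ratio was not tested.

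**Figure D2:**
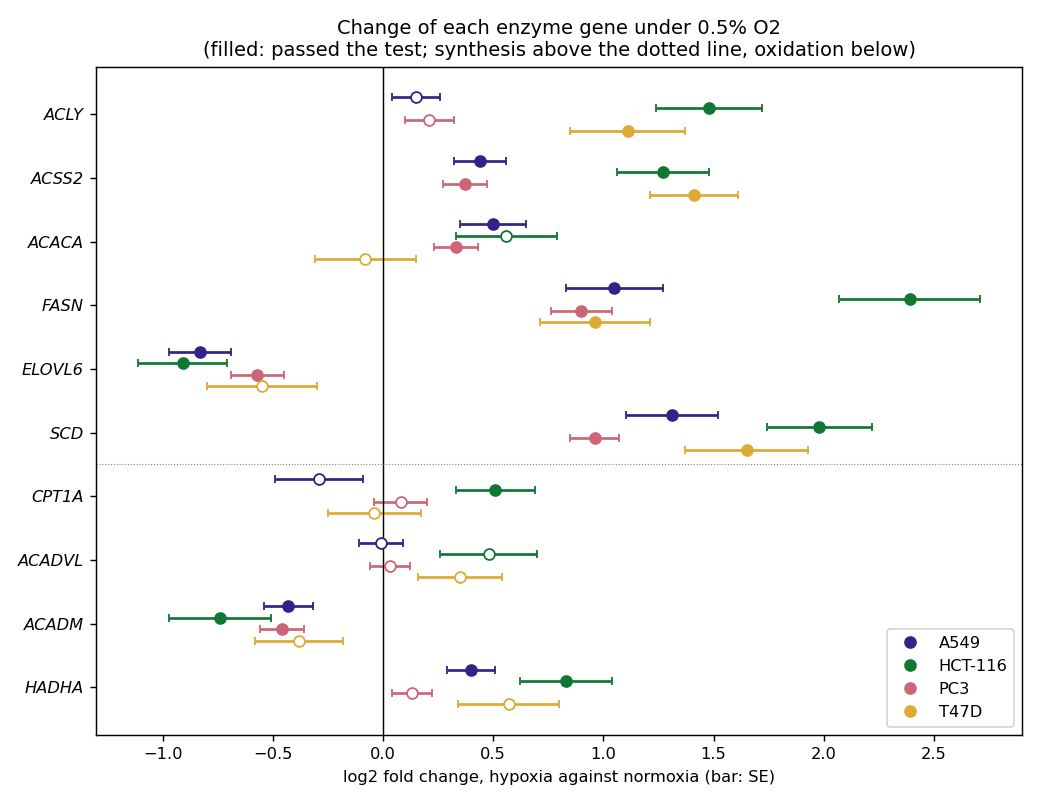
Fitted log2 fold change of each member in hypoxia against normoxia with its SE, by cell line (colour). Filled points passed the test and open points did not. SCD, FASN and ACSS2 are filled and positive in 4 lines. The calls of FASN in T47D and ACSS2 in PC3 were lost after GC correction. ELOVL6 and ACADM are filled and negative in A549, HCT-116 and PC3, where the ACADM decrease was lost after GC correction.

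The oxidation members changed less. CPT1A (chr11:68522088-68611878, minus strand), the gatekeeper of mitochondrial fatty acid uptake, was called in HCT-116 only, from 78.2, 66.8 and 93.1 CPM to 119, 131 and 119 CPM (log2 fold change 0.51 ± 0.18, adjusted p = 0.0332). That call was lost without hypoxia replicate 2 (adjusted p = 0.0983) or hypoxia replicate 3 (0.0860). In A549 the libraries held 78.6, 68.9 and 66.7 CPM in normoxia and 74.9, 63.0 and 37 CPM in hypoxia, with hypoxia replicate 3 well below the others (log2 fold change -0.29 ± 0.20, adjusted p = 0.277). PC3 had 156, 176 and 128 CPM and then 153, 183 and 165 CPM (log2 fold change 0.08 ± 0.12, adjusted p = 0.636). T47D had 189, 157 and 180 CPM and then 188, 207 and 145 CPM (log2 fold change -0.04 ± 0.21, adjusted p = 0.910). The states overlapped in these 3 lines. CPT1A accounted for a larger share of the per-kb level of CPT1A, CPT1B and CPT1C in hypoxic than in normoxic HCT-116, 89.2% ± 3.39 against 65.1% ± 11.5 (SD, n = 3), and the states did not overlap. CPT1B, the muscle-type isoform, fell in that line from 13.4 to 3.89 CPM on average (log2 fold change -1.92 ± 0.34, adjusted p = 0.000560).

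ACADVL (chr17:7120444-7128585, plus strand), the very long-chain acyl-CoA dehydrogenase, was called in no line. HCT-116 libraries held 107, 135 and 135 CPM in normoxia and 141, 239 and 192 CPM in hypoxia, which did not overlap (log2 fold change 0.48 ± 0.22, adjusted p = 0.0839). T47D libraries held 119, 132 and 122 CPM in normoxia and 164, 167 and 172 CPM in hypoxia, also without overlap (log2 fold change 0.35 ± 0.19, adjusted p = 0.229). In A549 (228, 213 and 200 CPM, then 220, 216 and 202 CPM) and in PC3 (211, 206 and 180 CPM, then 217, 209 and 204 CPM) the states overlapped. The fitted log2 fold changes were -0.01 ± 0.10 in A549 and 0.03 ± 0.09 in PC3, with adjusted p of 0.959 and 0.837. ACADVL passed the threshold in HCT-116 in the fit without hypoxia replicate 1 (log2 fold change 0.71, adjusted p = 0.0218) and with DESeq2 (0.52, adjusted p = 0.0496). ACADVL shares 2717 bases with DLG4 on the opposite strand, and as the strand setting of the counting is not given in the sources used here its counts are uncertain, although mean normoxic DLG4 was low, at 11.5 to 19.1 CPM.

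ACADM (chr1:76190116-76253260, plus strand, 12 exons), the medium-chain acyl-CoA dehydrogenase, had lower fitted levels in hypoxia in all 4 lines and passed the test in 3. A549 libraries fell from 53.2, 53.3 and 46.1 CPM to 36.5, 35.6 and 42.0 CPM (log2 fold change -0.43 ± 0.11, adjusted p = 0.0118). PC3 libraries fell from 51.6, 54.6 and 56.6 CPM to 44.3, 37.9 and 40.3 CPM (log2 fold change -0.46 ± 0.10, adjusted p = 0.00838). In both the states were separate. HCT-116 libraries went from 69.7, 124 and 129 CPM to 68.9, 76.3 and 64.0 CPM (log2 fold change -0.74 ± 0.23, adjusted p = 0.0153), where normoxia replicate 1 lay within the hypoxic range. T47D had 41.8, 29.9 and 42.1 CPM and then 28.0, 32.1 and 32.3 CPM, which overlapped (log2 fold change -0.38 ± 0.20, adjusted p = 0.216). Leaving out 1 library removed the call in 4 of 6 fits in HCT-116 (without hypoxia replicate 1 or 3 or normoxia replicate 2 or 3, adjusted p of 0.0511, 0.0946, 0.0820 and 0.0789). In A549 it removed the call in 3 of 6 (without hypoxia replicate 2 or normoxia replicate 1 or 2, adjusted p of 0.0774, 0.0505 and 0.0544). RABGGTB, which shares 1379 bases with ACADM on the same strand, was lower in hypoxia in all 4 lines, with log2 fold changes of -0.85 in A549, -2.02 in HCT-116, -0.90 in PC3 and -1.08 in T47D. Its part in the ACADM counts was not tested.

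HADHA (chr2:26413504-26467540, minus strand, 20 exons) was upregulated in A549, from 333, 294 and 341 CPM to 409, 417 and 453 CPM (log2 fold change 0.40 ± 0.11, adjusted p = 0.0133). In HCT-116 it rose from 100, 102 and 159 CPM to 209, 260 and 226 CPM, a 1.78-fold increase (log2 fold change 0.83 ± 0.21, adjusted p = 0.00568). T47D libraries also separated, at 125, 99.0 and 183 CPM and then 196, 207 and 232 CPM, but without passing the test (log2 fold change 0.57 ± 0.23, adjusted p = 0.121). The T47D value was called without normoxia replicate 3 (log2 fold change 0.81, adjusted p = 0.0318), and the A549 call was lost without normoxia replicate 2 (0.33, adjusted p = 0.0701). PC3 had 259, 269 and 223 CPM and then 299, 280 and 274 CPM (log2 fold change 0.13 ± 0.09, adjusted p = 0.290), again with no overlap. HADHB encodes the beta subunit of the same complex and lies beside HADHA on the opposite strand, with 1503 shared bases, so counts of both are uncertain. HADHB was not called in any line, with log2 fold changes of 0.10 in A549, -0.25 in HCT-116, -0.11 in PC3 and 0.13 in T47D. The HADHA to HADHB ratio per kilobase was 0.942, 0.769 and 1.09 in normoxic HCT-116 and 1.83, 1.93 and 2.17 in hypoxic HCT-116. It was 0.784, 0.862 and 1.11 in normoxic T47D and 1.3, 1.28 and 1.19 in hypoxic T47D, with no overlap in either line. In A549 the means were 1.43 ± 0.171 and 1.77 ± 0.101 (SD, n = 3), also without overlap, and in PC3, at 1.89 ± 0.320 and 2.21 ± 0.128, the lowest hypoxic library (2.11) lay just under the highest normoxic one (2.12). These ratios were not tested.

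**Figure D3:**
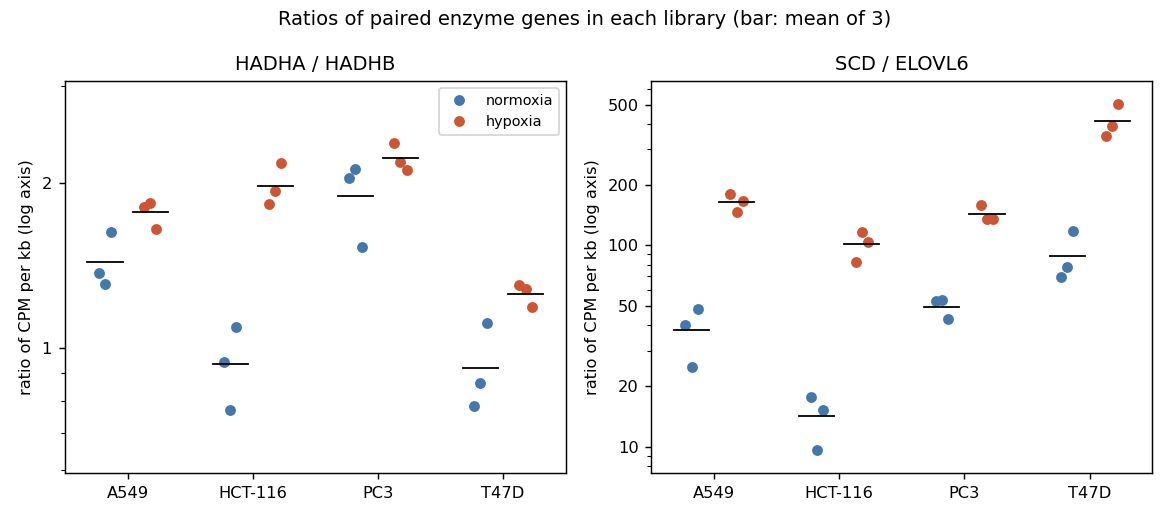
Ratios of per-kb levels of HADHA to HADHB (left) and SCD to ELOVL6 (right) in each of the 24 libraries, on log axes, by cell line and O2 state; points are libraries and bars are means of 3. The SCD to ELOVL6 ratio is higher in hypoxia in every line with no overlap, and the mean HADHA to HADHB ratio moved from 0.932 to 1.98 in HCT-116, with overlap between the states in PC3.

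GC content moved with several of these values. The transcript used for each gene was chosen by its annotation tag (MANE Select, then Ensembl canonical, then basic), and length decided only between transcripts of equal tag. Those of the members ranged from 35.9% GC in ACADM and 41.4% in ELOVL6 to 57.8% in ACADVL and 65.3% in FASN, around a median of 48.6% over the genes tested in all lines. When trends with GC content and transcript length were removed from each library, the calls of SCD and ELOVL6 were kept wherever they had been made, with log2 fold changes for SCD of 1.2 in A549, 1.76 in HCT-116, 0.87 in PC3 and 1.56 in T47D. ELOVL6 stood at -0.88, -0.89 and -0.59 in A549, HCT-116 and PC3. FASN was reduced but still called in A549 (0.49 ± 0.15, adjusted p = 0.0266), HCT-116 (1.31 ± 0.23, adjusted p = 0.000862) and PC3 (0.31 ± 0.09, adjusted p = 0.0241), and was lost in T47D (0.44 ± 0.17, adjusted p = 0.114). ACADM lost its decrease, with 0.02 in A549 and 0.00 in PC3, and turned to an increase in HCT-116 (0.49 ± 0.18, adjusted p = 0.0464). ACACA went to 0.15 in A549, -0.05 in HCT-116, -0.01 in PC3 and -0.35 in T47D, none of them called, and the CPT1A increase in HCT-116 went to 0.06 (adjusted p = 0.771), while in A549 CPT1A was called lower (-0.52 ± 0.18, adjusted p = 0.0415). ACSS2 was kept in A549, HCT-116 and T47D and fell below the fold threshold in PC3 (0.26 ± 0.08, adjusted p = 0.0341). The HADHA increases in A549 and HCT-116 changed little, at 0.37 and 0.78. Whether the trend with GC content arose in the cells or in library preparation was not tested.

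**Figure D4:**
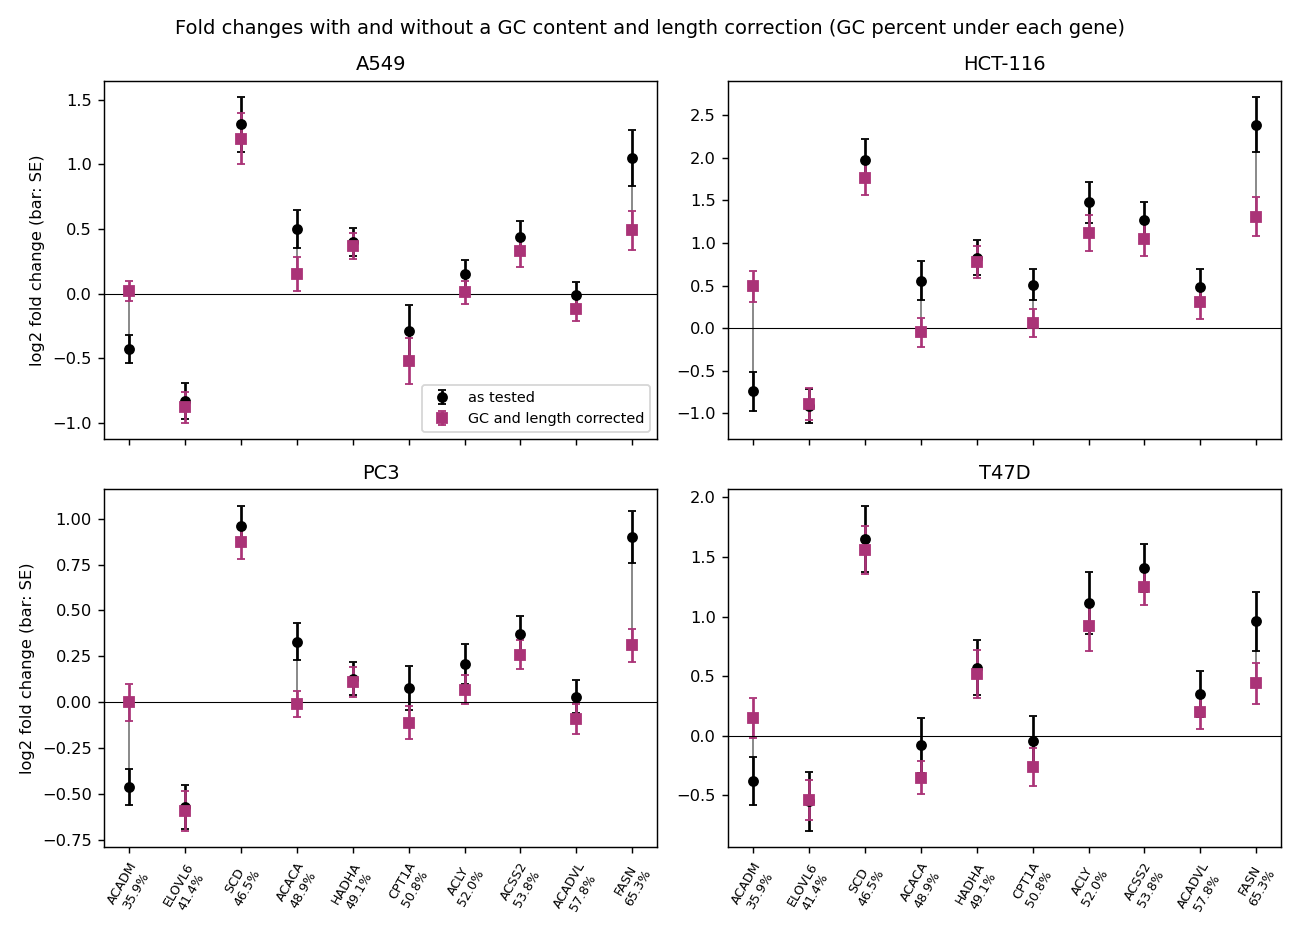
Log2 fold changes of the 10 members in each line as tested (black circles) and after correction for GC content and transcript length (purple squares), with SE; genes are ordered by the GC content of their transcript, which is printed below each name. SCD and ELOVL6 hardly move, FASN is lower after correction in each line, and ACADM moves from below 0 to 0.02 in A549, 0.49 in HCT-116, 0.00 in PC3 and 0.15 in T47D.

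The response differed between lines for 3 members. The interaction of line and hypoxia, fitted to all 24 libraries, passed the test for ACSS2 (adjusted p = 0.00166), ACLY (0.00320) and FASN (0.0102), and it passed for 18.3% of all tested genes. ACLY and ACSS2 rose most in HCT-116 and T47D, with log2 fold changes over 1 there and under 0.5 in A549 and PC3, and FASN rose most in HCT-116. SCD, which rose in all lines, did not differ between them by this test (adjusted p = 0.0663), nor did CPT1A (0.0843), ACADVL (0.0978), HADHA (0.141), ACACA (0.243), ELOVL6 (0.564) or ACADM (0.743). With the replicate number as a block, 5 members passed, SCD (0.0470) and CPT1A (0.0460) being added. Without replicate 2 of every group, 0 members passed, with adjusted p of 0.197 for ACSS2, 0.134 for ACLY and 0.278 for FASN. ACLY also missed the threshold without replicate 1 (0.116). The interaction was not tested with the GC content and length correction. That correction took the FASN log2 fold change in HCT-116 from 2.39 to 1.31, against 0.31 to 0.49 in the other lines.

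Normoxic levels of the members also differed between lines. The fold between the highest and lowest line was largest for ELOVL6 (5.46) and ACLY (3.72) and smallest for ACADVL (1.72), and for FASN (2.83) and SCD (2.13) it was below their largest hypoxic fold changes of 5.25 and 3.96. In edgeR contrasts between the normoxic groups, 5 members differed between A549 and HCT-116 (64.9% of all tested genes), 6 between A549 and PC3 (60.0%), 8 between A549 and T47D (66.6%), 8 between HCT-116 and PC3 (65.6%), 7 between HCT-116 and T47D (68.5%) and 8 between PC3 and T47D (67.8%). Out of 10 members, these counts lie near the background of all genes.

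ACLY was highest in A549 (914 ± 98.9 CPM, SD, n = 3), followed by T47D (491 ± 144), and PC3 (265 ± 44) and HCT-116 (246 ± 77.7) did not differ beyond their spread (adjusted p = 0.734). FASN was highest in T47D (1072 ± 134 CPM), while its neighbours in the order, HCT-116 (579 ± 262), PC3 (454 ± 113) and A549 (379 ± 147), were not separated from each other (adjusted p = 0.332 and 0.485). ELOVL6 was highest in HCT-116 (97.9 ± 20.2 CPM) and then A549 (41.7 ± 4.56), with T47D (21.6 ± 2.09) and PC3 (17.9 ± 0.763) not separated (adjusted p = 0.162). For SCD only the step from HCT-116 (1066 ± 182 CPM) down to PC3 (708 ± 61.2) passed the test between neighbours (adjusted p = 0.0351), below T47D (1506 ± 314) and A549 (1240 ± 336).

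ACSS2 ran from PC3 (55.1 ± 5.65 CPM) through T47D (42.9 ± 4.68) to A549 (21.6 ± 1.46) and HCT-116 (20.3 ± 2.48), the last pair not being separated (adjusted p = 0.634). ACACA was highest in T47D (190 ± 18.9 CPM) and lowest in PC3 (77.8 ± 10.7), with A549 and HCT-116 between them and not separated (adjusted p = 0.613). Among the oxidation genes, CPT1A was higher in T47D (175 ± 16.6 CPM) and PC3 (153 ± 24.3) than in HCT-116 (79.4 ± 13.2) and A549 (71.4 ± 6.31), and neither pair was separated within itself (adjusted p = 0.330 and 0.442). A549 and PC3 led for both ACADVL and HADHA, with 213 ± 14 and 199 ± 16.9 CPM for ACADVL and 322 ± 25.4 and 250 ± 24 CPM for HADHA, and neither pair was separated (adjusted p = 0.594 and 0.176). ACADM was highest in HCT-116 (107 ± 32.8 CPM), and the other 3 lines were not separated between neighbours (adjusted p = 0.716 and 0.0807).

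Per kilobase of transcript, SCD led in all 8 groups, from 135 CPM per kb in normoxic PC3 to 954 CPM per kb in hypoxic T47D. ELOVL6 was last in 7 of the 8 groups, the exception being normoxic HCT-116, where ACSS2 stood lower (7.04 against 14.9 CPM per kb). FASN moved from rank 5 to rank 2 of the 10 members in PC3 under hypoxia, at 53.6 and 103 CPM per kb, and held rank 2 in HCT-116 and T47D in both states. In HCT-116 ACADM was at rank 5 in normoxia (47.5 CPM per kb) and at rank 6 in hypoxia (30.8 CPM per kb).

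The other genes of these pathways were counted by lists chosen with earlier results of these data known. Of the other synthesis, elongation and desaturation genes, 8 of 22 tested were higher and 3 lower in A549, 4 and 6 of 20 in HCT-116, 6 and 2 of 22 in PC3, and 1 and 0 of 22 in T47D, with list medians between -0.04 and 0.10. The share higher was 36.4% in A549 and 27.3% in PC3 against 17.6% and 16.6% of all genes, while in HCT-116 the shares higher (20.0%) and lower (30.0%) lay near those of all genes (23.3% and 27.0%). Without 1 library the higher count ranged from 3 to 8 in A549 and from 3 to 7 in PC3. FADS2, the delta-6 desaturase, rose in every line, with log2 fold changes of 1.09 in A549, 1.14 in HCT-116, 0.74 in PC3 and 1.16 in T47D. SLC25A1, which exports the citrate used by ACLY from mitochondria, rose in A549 (0.45), HCT-116 (1.46) and PC3 (0.34), with 0.60 in T47D (adjusted p = 0.114). SCD5 rose in A549 (0.53) and PC3 (0.52) and was at 0.155 CPM in normoxic T47D.

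Among the fatty acid activation and uptake genes, 1 was higher and 2 lower of 11 tested in A549, 1 and 2 of 13 in HCT-116, 1 and 1 of 13 in PC3, and 2 and 0 of 12 in T47D. In T47D 16.7% of the list was higher against 6.55% of all genes, a count that ranged from 0 to 3 without 1 library, and in HCT-116 7.69% was higher and 15.4% lower against 23.3% and 27.0%. FABP5, an intracellular fatty acid carrier, was lower in A549 (-0.69), HCT-116 (-1.37) and PC3 (-0.60) and was not expressed above 1 count in T47D. With the GC content and length correction and the replicate block together, the HCT-116 value of FABP5 was 0.01. SLC27A3, a fatty acid transport protein with acyl-CoA synthetase activity, rose in HCT-116 (0.92) and PC3 (0.48). Its fitted values were negative in A549 (-0.73, adjusted p = 0.385) and T47D (-1.43, adjusted p = 0.0755), where it was not called.

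Of the other mitochondrial oxidation genes, 1 was higher and 4 were lower of 19 in A549, 1 and 7 in HCT-116, 0 and 4 in PC3, and 1 and 1 in T47D. The shares higher, 5.26%, 5.26%, 0% and 5.26%, stood below those of all genes (17.6%, 23.3%, 16.6% and 6.55%). The shares lower, 21.1%, 36.8%, 21.1% and 5.26%, lay nearer to those of all genes (17.8%, 27.0%, 15.7% and 6.69%). With the GC content and length correction 1, 4, 1 and 1 were lower, and without 1 library 0 to 7 in A549, 5 to 7 in HCT-116, 0 to 4 in PC3 and 0 to 3 in T47D. The median of this list was -0.12 in A549, -0.33 in HCT-116, -0.11 in PC3 and -0.11 in T47D, against medians near 0 over all genes. CPT1B was lower in all 4 lines, with log2 fold changes from -1.92 in HCT-116 to -0.88 in PC3. ACADSB, which dehydrogenates short branched-chain acyl-CoA, was lower in A549 (-0.35), HCT-116 (-1.34) and PC3 (-0.42). DECR1, a reductase needed for unsaturated fatty acids, was lower in A549 (-0.32), HCT-116 (-1.15) and PC3 (-0.36, adjusted p = 0.0499). Without hypoxia replicate 1, hypoxia replicate 2 or normoxia replicate 1, the A549 calls of both genes were lost. The A549 value of DECR1 became 0.01 with the GC content and length correction.

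Of the peroxisomal oxidation genes, 1 was higher and 2 were lower of 13 in A549, 2 and 3 of 12 in HCT-116, 1 and 1 of 13 in PC3, and 0 and 1 of 13 in T47D. The shares higher were 7.69%, 16.7%, 7.69% and 0%, against 17.6%, 23.3%, 16.6% and 6.55% of all genes. The shares lower, 15.4%, 25%, 7.69% and 7.69%, compared with 17.8%, 27.0%, 15.7% and 6.69% of all genes. CROT, the peroxisomal carnitine octanoyltransferase, was lower in A549 (-0.84), PC3 (-0.49) and T47D (-1.09) and was at most 1 count in HCT-116.

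Of the regulators of the pathway, 8 were higher and 2 lower of 20 in A549, 8 and 3 of 20 in HCT-116, 8 and 1 of 20 in PC3, and 5 and 1 of 21 in T47D. The shares higher, 40.0% in A549, HCT-116 and PC3 and 23.8% in T47D, stood against 17.6%, 23.3%, 16.6% and 6.55% of all genes. With the GC content and length correction 5, 5, 6 and 4 were higher, and without 1 library 4 to 8, 6 to 10, 4 to 8 and 2 to 6. INSIG2, which retains the SREBP and SCAP complex in the endoplasmic reticulum, rose with log2 fold changes of 1.09 in A549, 2.22 in HCT-116, 0.86 in PC3 and 1.48 in T47D. INSIG1, its paralog and itself a known SREBP target, rose by 1.16, 2.14, 0.56 and 1.31 in the same order. SREBF2, the gene for SREBP2, rose by 0.83, 1.63, 0.45 and 0.75. Each of these, like FASN and SCD, had its largest fitted fold change in HCT-116 and its smallest in PC3. The hypoxia markers given above also had their smallest in PC3, so that trait was not particular to these genes. ANKRD37 (3.53) and ADM (2.72) were likewise largest in HCT-116, whereas CA9, NDRG1 and VEGFA were largest in T47D and EGLN3 in A549.

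The profile of each member over the 8 groups was compared with that of 11724 other genes, by the root mean square difference of log2 CPM after centring. FASN and SCD were each other's nearest member, at 0.53, with 26 other genes nearer to FASN and 35 nearer to SCD. The genes nearest to SCD were JUND (0.29) and MPI (0.30), and those nearest to FASN were NAB2 (0.32) and GRB7 (0.40). ELOVL6 and ACADM, both lower in hypoxia, were each other's nearest member at 0.56, but 331 and 2319 other genes were nearer, led by LOC100289092 (0.23) for ELOVL6 and ILKAP (0.08) for ACADM. ACADVL and HADHA were nearest to each other at 0.31, with 635 and 168 other genes nearer, led by HNRNPH3 and SIRT3 (0.11 each) for ACADVL and by CNP and ZC3HAV1 (0.12 each) for HADHA. ACLY was nearest to SYT17 (0.21) and DDB2 (0.24), ACSS2 to TMTC2 (0.12) and C21orf2 (0.20), ACACA to RB1 (0.13) and VPS13B (0.17), and CPT1A to NCAPD3 (0.09) and TDP1 (0.15). ELOVL6 was followed by RANBP17 (0.24) and ACADM by AFMID (0.11). These distances describe 8 group means and were not tested.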

How the data were processed

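Counts of fragments per gene symbol were deposited by the authors for each of the 24 libraries, without normalization. The authors trimmed reads with Trim Galore 0.3.3, aligned them to GRCh37 with HISAT2 2.05, removed fragments without a unique position with Picard 2.0.1, counted UCSC-defined genes with HTSeq 0.5.4p3 in intersection-strict mode and tested them with DESeq2 (per the labels and the study's methods). The kit was directional, and the strand setting of HTSeq is not given in the sources used here.

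From these counts, differential expression was computed with the quasi-likelihood test of edgeR 4.0.16 in R 4.3.3 (filterByExpr, TMM) within each line, with Benjamini-Hochberg adjustment over all genes tested. Samples were grouped by cell line and O2 state in the labels. Line differences were tested as an interaction over 24 libraries, and normoxic levels in a fit of 12 libraries. Library totals of 22698584 to 62850747 counts set the precision, and no interval covers more than counting error and the spread between libraries. Alternatives were DESeq2 1.42.0, RLE and total-count scaling, 2 filters (none, or a mean count of at least 50), a replicate block, a fit of all 24 libraries, thresholds of 0.01 and 1.5, GC content and length splines with 5 degrees of freedom (with and without the block), and each library or replicate left out. The GC content and length splines were applied only to hypoxia against normoxia within a line. The scripts were tested on simulated data.

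Replicate numbers come from the sample titles. Same-numbered libraries of T47D deviated together (r from 0.154 to 0.325 over 3 pairs), which meets the criterion of r over 0.1 in every pair. The main fit of T47D nevertheless carried no block, and adding the block changed no member's call in T47D. The members and gene lists were chosen with earlier results of these data known. All members are named, and from each further list up to 3 genes with the largest mean change among those called in the same direction in at least 2 lines, and the 2 genes nearest to each member, some genes of the lists not being reported here by name. Gene coordinates, transcript length and GC content came from the GENCODE annotation of GRCh37, in which 21584 symbols (93.4%) had a transcript, and promoters came from RefSeq on GRCh38.p14. Motifs were searched on both strands, and ACGTG and CACGTG overlap.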

Additional observations from a re-analysis of the deposited data

Results flagged for a closer look

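The hypoxia response differed between the 4 lines, by the edgeR interaction of line and hypoxia over 24 libraries, for 3 of the 10 members. The adjusted p was 0.00320 for ACLY, 0.00166 for ACSS2 and 0.0102 for FASN. ACLY and ACSS2 had their larger increases in HCT-116 and T47D, and FASN had its largest in HCT-116. None of the 3 passed without replicate 2 of every group, and the interaction was not tested with the GC content and length correction.

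Among the named genes of the further lists, the same test passed for SLC25A1 (adjusted p = 0.00692), SLC27A3 (0.0343), ACADSB (0.0110), INSIG2 (0.00613), INSIG1 (0.00103) and SREBF2 (0.00440). In SLC25A1, INSIG2, INSIG1 and SREBF2 the largest increase was in HCT-116, and in ACADSB the largest decrease was in HCT-116. SLC27A3 rose in HCT-116 and PC3, with a fitted log2 fold change of -1.43 in T47D that did not pass the test (adjusted p = 0.0755).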

How the results depend on the processing

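Of 680 alternative values of member log2 fold changes, 569 kept their direction and side of the threshold, and 17 that were uncalled changed sign (between -0.11 and 0.16). Another 69 lost a call, 18 gained one and 7 called values changed sign, some of them to about 0. Upregulated members in A549 numbered 3 with total counts, which moved the median of all genes to -0.13, and 2 in the fit of all 24 libraries, at an adjusted p under 0.01 or at a fold change over 1.5, and in each of the last 3 settings 1 was downregulated. In PC3, 2 were upregulated in the fit of all 24 libraries (0 downregulated), with the GC content and length correction (1 downregulated, with and without the block), at an adjusted p under 0.01 and at a fold change over 1.5 (0 downregulated). In HCT-116, 1 was downregulated with the GC correction, with and without the block, and at an adjusted p under 0.01. In T47D, 2 were upregulated at an adjusted p under 0.01, and 1 was downregulated (ELOVL6, -0.55, adjusted p = 0.0202) with the GC correction and replicate block together. Total counts moved the share of higher among all calls from 49.8% to 33.9% in A549 and from 49.5% to 32.1% in T47D, where the median of all genes moved to -0.12.

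The GC correction turned ACADM in HCT-116 to a called increase (0.49, and 0.52 with the block). It took other called values to about 0, where a change of sign shows no direction. These were ACADM in A549 (0.02, and 0.02 with the block), ACACA in PC3 (-0.01 in both) and DECR1 in A549 (0.01, and 0.00 with the block). ACADM in PC3 was also at 0.00 with and without the block, and FABP5 in HCT-116 was at 0.01 with the block. The cause was not tested.

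Leaving out 1 library gave 2 to 5 upregulated and 1 to 2 downregulated members in A549 (2 upregulated without normoxia replicate 2, 3 without hypoxia replicate 1, 1 downregulated without hypoxia replicate 2 or normoxia replicate 1 or 2), 5 to 7 and 1 to 2 in HCT-116 (1 downregulated without hypoxia replicate 1 or 3 or normoxia replicate 2 or 3), 2 to 4 and 2 in PC3 (2 upregulated without hypoxia replicate 1 or 2) and 1 to 5 and 0 in T47D (1 upregulated without normoxia replicate 1, 2 without hypoxia replicate 2 or normoxia replicate 2). Members with an interaction numbered 0 (without replicate 2) to 4 when a replicate was left out, and 5 with the replicate block. Members differing in normoxia numbered 5 (without replicate 1) to 8 between HCT-116 and PC3 and 5 (without replicate 2) to 6 between PC3 and T47D.

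Same-numbered libraries correlated at r from 0.083 to 0.207 in A549, 0.071 to 0.288 in HCT-116 and 0.078 to 0.082 in PC3. These lines did not meet the criterion of r over 0.1 in every pair, and 4, 5 and 6 of 6 libraries correlated best with their own number. The main fits and the fits without 1 library carried no replicate block in any line, T47D included, although T47D met the criterion. With the replicate block, ACACA in HCT-116 was called (0.59, adjusted p = 0.0173), and no other member's call changed within a line. In the fits without a block T47D was the least stable line. It had 180 genes higher and 19 lower without normoxia replicate 1 and 1549 and 1756 without hypoxia replicate 3, against 922 and 942 with all libraries.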
